A study of Homo sapiens with 12 samples.

Results

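Transcripts of 10 genes of the insulin-like growth factor (IGF) axis were followed in ARPE-19 cells, an established human line derived from retinal pigment epithelium (RPE). They encode the ligand IGF2, the binding proteins IGFBP2 to IGFBP7, the receptors IGF1R and IGF2R, and the adaptor IRS1. The 10 genes were picked by symbol from the 40591 named lines of the count table, and all 10 were found. They were chosen with their levels in these libraries already known, so their levels and fold changes are given as a description. No p-value is given for them, and the number that pass the threshold of the fit stands beside the background. Where a call of these genes is named elsewhere, it shows only how far that call depends on the libraries or the processing. It is no evidence for a difference, since the choice of genes used the same values.

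The study measured poly(A) RNA in 12 libraries, 3 in each of 4 groups, to set a detoxifying enzyme beside reprogramming factors in RPE cells. The WT group is ARPE-19 with no open reading frame (ORF) named in its labels. The GFP, GSTA4 and OSK groups are stable ARPE-19 lines sampled after 4 days of ORF expression. They carry green fluorescent protein as the control ORF, GSTA4, a glutathione transferase that clears lipid peroxidation aldehydes, or the reprogramming factors POU5F1 (OCT4), SOX2 and KLF4, as the name OSK is read here. It is not stated in the labels if the 3 libraries within a group are separate lines or cultures, or if WT cells were handled like the stable lines. The p-values below therefore measure the spread between these libraries, which may be technical.

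IGF1 and IGF2 signal through the receptor tyrosine kinase IGF1R. IRS1 and IRS2 link that receptor and the insulin receptor to PI3K and AKT, which hold the FOXO transcription factors out of the nucleus. Secreted binding proteins hold IGFs in the extracellular fluid, prolong their life and limit or direct their access to the receptor, until proteases cleave them. IGF2R, also the cation-independent mannose 6-phosphate receptor, takes up IGF2 for degradation and sorts lysosomal enzymes. RPE cells are known to secrete several IGF binding proteins.

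Libraries held 12630675 to 17045454 counts, of which lines without a symbol took 0.485% to 0.822%. At that depth, 3 counts, the limit that a count of 0 allows, equal 0.177 to 0.239 counts per 1000000 before scaling. This limit covers counting error only, and CPM stands for counts per 1000000 after scaling. The ORFs matched the labels: GSTA4 read 396 to 431 CPM in its own line against 4.42 to 22.5 elsewhere, and POU5F1, SOX2 and KLF4 read 623 to 949 CPM in OSK against at most 2.67 elsewhere. WT replicate 1 stood apart from the other WT libraries, with a chi-square per degree of freedom of 15.0 and 17.4 against 2.54 between those others. GFP replicate 1 had counts on 27349 named genes, where the other libraries had 19488 to 22073. The RPE markers OTX2, MITF, PMEL and TYRP1 were detected in all groups, whereas RPE65 and TTR were near 0. Summed RPE markers ran from 2420 to 2658 CPM in WT, 2187 to 2520 in GFP, 1387 to 1458 in OSK and 1572 to 1645 in GSTA4. The keratins KRT8 and KRT18, at means of 1247 and 432 CPM in WT and 843 and 314 CPM in GFP, made up most of the sum in WT.

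IGF2 and IGF1 were at or near 0 counts in every library, so no clear locally made ligand was seen at this depth. IGF2 gave 2 counts in GFP replicate 1, 2 in OSK replicate 1, 1 in WT replicate 1 and 0 in the other 9 libraries. INS-IGF2, IGF2-AS and MIR483, which overlap IGF2, and the neighbouring H19 had 0 counts in all 12 libraries. IGF1, no member of the group of 10, gave 1 count in GFP replicate 3 and none elsewhere. IGFBP4, a binding protein cleaved by PAPPA, gave 0 counts in WT and GSTA4 and at most 2 in any GFP or OSK library. IGF2 and IGFBP4 did not pass the filter on low counts, so 8 of the 10 genes were fitted, and no fold is given for either. IGF2 lies at chr11:2129112-2158658 on the minus strand and IGFBP4 at chr17:40443461-40457731 on the plus strand (GRCh38, GENCODE v29, as for all gene positions here).

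In all groups IGFBP7 was the most abundant of the 10 genes per transcript length. OSK held high IGFBP6 and IGFBP3, GSTA4 held low IGFBP3 and higher IGFBP2, and IGFBP5 had its highest mean in WT through WT replicate 1, without which the WT mean was 11.97 CPM against 11.8 in OSK. In CPM per kilobase of exon, IGFBP7 averaged 466 in WT, 537 in GFP, 648 in OSK and 307 in GSTA4. The next in OSK was IGFBP6 at 141, whereas in WT and GFP it was IGF1R at 30.6 and 30.4, and in GSTA4 IGF2R at 26.3. The 10 genes together took 0.200% to 0.223% of named reads in WT, 0.216% to 0.224% in GFP, 0.269% to 0.290% in OSK and 0.156% to 0.161% in GSTA4. IGFBP7 alone made up 36.8% to 48.6% of the reads on the 10 genes. In bulk RNA, fewer cells of a type and less RNA per cell cannot be told apart. Below, a call means an adjusted p under 0.05 in edgeR's quasi-likelihood test over all genes, and every fold change is a difference on the log2 scale unless given as a fold.

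IGFBP6, which prefers IGF2 over IGF1, read 9.27, 8.37 and 8.26 CPM in WT, 5.63, 9.10 and 9.31 in GFP, 9.21, 8.71 and 11.3 in GSTA4, and 169, 181 and 219.8 in OSK. The OSK libraries stood far above the other 9, which overlapped one another. The OSK level was 23.5-fold that of GFP (log2 fold change 4.56, SE 0.137) and log2 4.28 (SE 0.133) above GSTA4. GSTA4 against GFP came to 0.27 (SE 0.165) and GFP against WT to -0.10 (SE 0.166). IGFBP6 lies at chr12:53097436-53102345 on the plus strand, 1172 bases upstream of SOAT2 on the same strand. SOAT2 stayed at group means of 0.0959 to 0.388 CPM and was not tested.

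IGFBP3, the main carrier of IGFs in serum, read 34.3, 69.0 and 68.1 CPM in WT, 64.6, 83.2 and 80.2 in GFP, 12.5, 13.1 and 15.5 in GSTA4, and 130.1, 152 and 152 in OSK. Group means ran OSK, GFP, WT, GSTA4, with GFP and WT overlapping and the outer groups separate. GSTA4 against GFP was -2.47 on the log2 scale (SE 0.192) and OSK against GFP 0.93 (SE 0.161), which put OSK 10.6-fold above GSTA4. GFP against WT was 0.41 (SE 0.166), and 0.15 without WT replicate 1. WT replicate 1 held the lowest value of the WT and GFP libraries. The gene lies at chr7:45912245-45921874 on the minus strand, 18576 bases from IGFBP1, which gave 6 counts in GFP replicate 1 and at most 1 in any other library.

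IGFBP7, which binds IGFs weakly and insulin as well, read 762, 968 and 971 CPM in WT, 945, 1081 and 1085 in GFP, 574, 598 and 605 in GSTA4, and 1153, 1225 and 1372 in OSK. Its groups fell in the same order as those of IGFBP3 and over a narrower range. GSTA4 against GFP was -0.81 (SE 0.0861), OSK against GFP 0.27 (SE 0.0853) and OSK against GSTA4 1.08 (SE 0.0864), with GFP against WT at 0.20 (SE 0.0854), or 0.093 without WT replicate 1. OSK against GFP was 0.21 without GFP replicate 1 and 0.20 without OSK replicate 3. The call of IGFBP7 as higher in OSK than in GFP was lost in 2 of the 12 fits that left out 1 library. IGFBP7 spans chr4:57030773-57110385 on the minus strand and overlaps POLR2B on the other strand. Whether counting used strand is not given in the sources used here, and POLR2B passed the threshold in none of the 4 comparisons.

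IGFBP5, a matrix-associated binding protein, read 50.5, 11.7 and 12.3 CPM in WT, 4.11, 1.58 and 1.02 in GFP, 6.67, 4.73 and 3.51 in GSTA4, and 10.1, 12.3 and 13.0 in OSK. WT replicate 1 lay far above the other WT libraries, and GFP, the control ORF line, held the lowest mean. GFP against WT was -3.50 (SE 0.505), -2.45 without WT replicate 1 and -4.26 without GFP replicate 1. OSK against GFP was 2.43 (SE 0.531), and 3.19 without GFP replicate 1. GSTA4 against GFP was 1.19 (SE 0.585), and 1.95 without GFP replicate 1. Both directions turned when WT replaced GFP as the control, to -1.07 for OSK and -2.31 for GSTA4. These 2 values include WT replicate 1. Without that library the WT mean was 11.97 CPM, against 11.8 in OSK and 4.97 in GSTA4. OSK against GSTA4 was 1.24 (SE 0.463), and 1.04 to 1.53 with each library left out in turn. Its call as higher there was lost in 4 of those 12 fits and in DESeq2.

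IGFBP2, an IGF2-preferring binding protein, was low in this line and higher in GSTA4. It read 1.31, 1.25 and 2.18 CPM in WT, 1.29, 2.58 and 1.49 in GFP, 6.42, 6.45 and 7.02 in GSTA4, and 1.07, 1.39 and 3.17 in OSK. The 3 GSTA4 libraries lay above the other 9, which overlapped. GSTA4 against GFP was 1.88 (SE 0.335), OSK against GSTA4 -1.82 (SE 0.331) and OSK against GFP 0.06 (SE 0.375). GFP against WT was 0.17 (SE 0.379). IGFBP2 (chr2:216632828-216664436, plus strand) and IGFBP5 (chr2:216672105-216695525, minus strand) lie tail to tail with 7668 bases between them, and their group orders differed.

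**Figure D1:**
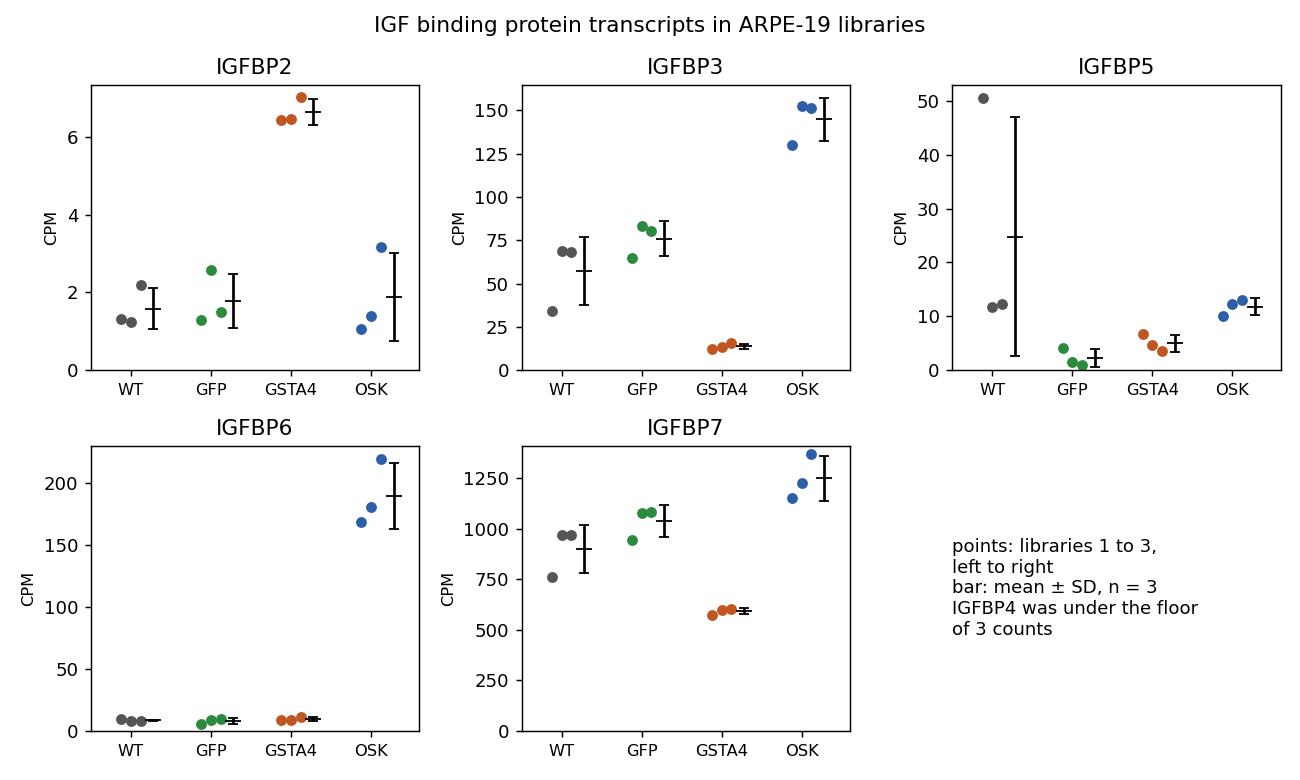
CPM on a linear axis from 0 for 5 binding proteins in each of the 12 libraries, by group, with points for libraries and, beside them, the mean ± SD (n = 3). OSK libraries of IGFBP6 sit at 169 to 219.8 CPM against at most 11.3 elsewhere, and GSTA4 libraries of IGFBP3 at 12.5 to 15.5 CPM lie below all others.

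The sequences just upstream of the RefSeq start sites of IGFBP3, IGFBP5 and IGFBP2 are shown because these binding proteins had group orders that differed from one another and the OSK cocktail contains KLF4, which binds CACCC-type sites. They are RefSeq sequences (GRCh38.p14), 5′ to 3′ on the gene's strand and ending before the annotated exon, and capitals mark matches to CCACCC on either strand. IGFBP3 covers chr7:45921275-45921522 (minus), which lies inside the longer span that GENCODE v29 gives the gene, between its annotated exons, IGFBP5 chr2:216695550-216695799 (minus) and IGFBP2 chr2:216632578-216632827 (plus).
IGFBP3: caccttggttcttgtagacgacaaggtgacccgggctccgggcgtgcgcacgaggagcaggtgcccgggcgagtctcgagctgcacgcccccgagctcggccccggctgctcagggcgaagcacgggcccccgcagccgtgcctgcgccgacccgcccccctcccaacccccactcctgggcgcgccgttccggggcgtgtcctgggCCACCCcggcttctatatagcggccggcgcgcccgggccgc
IGFBP5: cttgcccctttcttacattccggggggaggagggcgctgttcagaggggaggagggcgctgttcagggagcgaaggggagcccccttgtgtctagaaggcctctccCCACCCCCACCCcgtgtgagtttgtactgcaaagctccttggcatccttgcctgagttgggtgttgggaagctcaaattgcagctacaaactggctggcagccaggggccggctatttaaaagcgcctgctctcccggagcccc
IGFBP2: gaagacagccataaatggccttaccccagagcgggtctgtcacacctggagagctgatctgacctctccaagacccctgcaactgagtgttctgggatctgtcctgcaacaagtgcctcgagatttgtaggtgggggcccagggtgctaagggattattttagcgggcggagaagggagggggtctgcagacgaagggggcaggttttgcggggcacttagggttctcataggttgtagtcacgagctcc
IGFBP5 held 2 matches, IGFBP3 1 and the printed IGFBP2 window none. Over all promoter windows searched, CCACCC was found in 31.3% of 35116, the octamer ATGCAAAT in 1.63% and CATTGT in 9.29%. Windows were at hand for 8 of the 10 genes. None of them held ATGCAAAT or CATTGT, and CCACCC was found in those of IGFBP6, IGFBP5, IGFBP3, IRS1, IGF2R and IGF1R and in 1 of 3 windows of IGFBP2. The window of IGFBP6, with 2 CCACCC matches, overlaps an annotated exon and is not printed. A match describes letters in a window and says nothing of binding.

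IGF1R, the signalling receptor, read 407, 431 and 442 CPM in WT, 423, 410 and 440 in GFP, 311, 313 and 333 in GSTA4, and 396, 397 and 358 in OSK. GSTA4 libraries were below those of every other group, and WT and GFP overlapped. GSTA4 against GFP was -0.41 (SE 0.0604) and OSK against GFP -0.15 (SE 0.0602), in both cases with libraries that did not overlap. OSK against GSTA4 was 0.27 (SE 0.0604) and GFP against WT -0.01 (SE 0.0601). IRAIN, an antisense transcript within the IGF1R locus (chr15:98648539-98964530, plus strand), gave at most 13 counts.

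IGF2R, the scavenging and sorting receptor, read 478, 534 and 527 CPM in WT, 453, 474 and 488 in GFP, 481, 452 and 473 in GSTA4, and 676, 640 and 640 in OSK. The OSK libraries stood above all others, and the remaining groups overlapped one another. OSK against GFP was 0.47 (SE 0.0595) and GSTA4 against GFP -0.01 (SE 0.0596), with OSK against GSTA4 at 0.48 (SE 0.0595) and GFP against WT at -0.12 (SE 0.0595). It lies at chr6:159969099-160113507 on the plus strand. AIRN, antisense to it, gave 8, 19 and 4 counts in GFP and at most 1 in the other libraries.

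IRS1, the adaptor, read 207, 194 and 201 CPM in WT, 157, 161 and 171 in GFP, 161, 154 and 156 in GSTA4, and 249.5, 258 and 258 in OSK. OSK was highest and WT next, each apart from its neighbours, while GFP and GSTA4 overlapped. OSK against GFP was 0.64 (SE 0.0548), GFP against WT -0.30 (SE 0.0548) and GSTA4 against GFP -0.06 (SE 0.0552), and OSK against GSTA4 0.70 (SE 0.0548). IRS1 lies at chr2:226731317-226799759 on the minus strand.

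**Figure D2:**
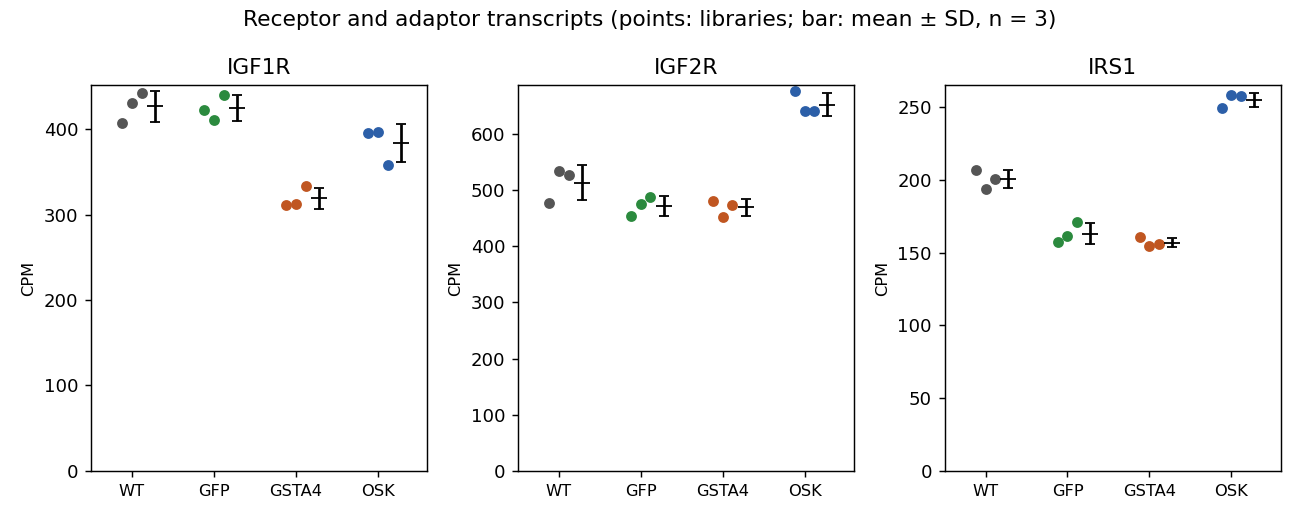
CPM of IGF1R, IGF2R and IRS1 on a linear axis from 0, by group, with points for libraries and, beside them, the mean ± SD (n = 3). IGF1R is lowest in GSTA4 (311 to 333 CPM), and IGF2R and IRS1 are highest in OSK (640 to 676 and 249.5 to 258 CPM).

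Counts of calls are given beside the background and nothing is read from them, since the choice of genes used these contrasts. In GSTA4 against GFP, 1 gene was higher and 3 lower of the 8 fitted, where 29.2% of all 15179 genes tested were called (14.7% higher and 14.6% lower), and 4 did not overlap between groups, against 42.3% of all genes. In OSK against GFP, 6 were higher and 0 lower in edgeR's quasi-likelihood test (1 lower at an unadjusted p under 0.05 and 1 lower in DESeq2, in each case IGF1R, which was called lower in 5 of 7 alternatives that keep all libraries), where 45.9% of all genes were called (23.1% higher and 22.8% lower). The libraries of 7 genes did not overlap there, against 54.7% of all genes. In GFP against WT, 0 were higher (2 at an unadjusted p under 0.05, 0 in DESeq2) and 2 lower, against 22.2% of all genes (11.0% higher and 11.2% lower). Non-overlap held for 2, against 34.6%. In OSK against GSTA4, 7 were higher and 1 lower, against 47.8% of all genes (24.1% higher and 23.8% lower). In DESeq2 6 were higher there, IGFBP5 not among them. The libraries of all 8 did not overlap, against 58.0%. Median log2 fold changes of the 8 genes were -0.03, 0.56, -0.05 and 0.89 in that order of comparisons, where all genes had 0.01, -0.02, 0.01 and -0.01. The first 3 comparisons share the GFP libraries and the last uses the same GSTA4 and OSK libraries, so they are not independent.

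**Figure D3:**
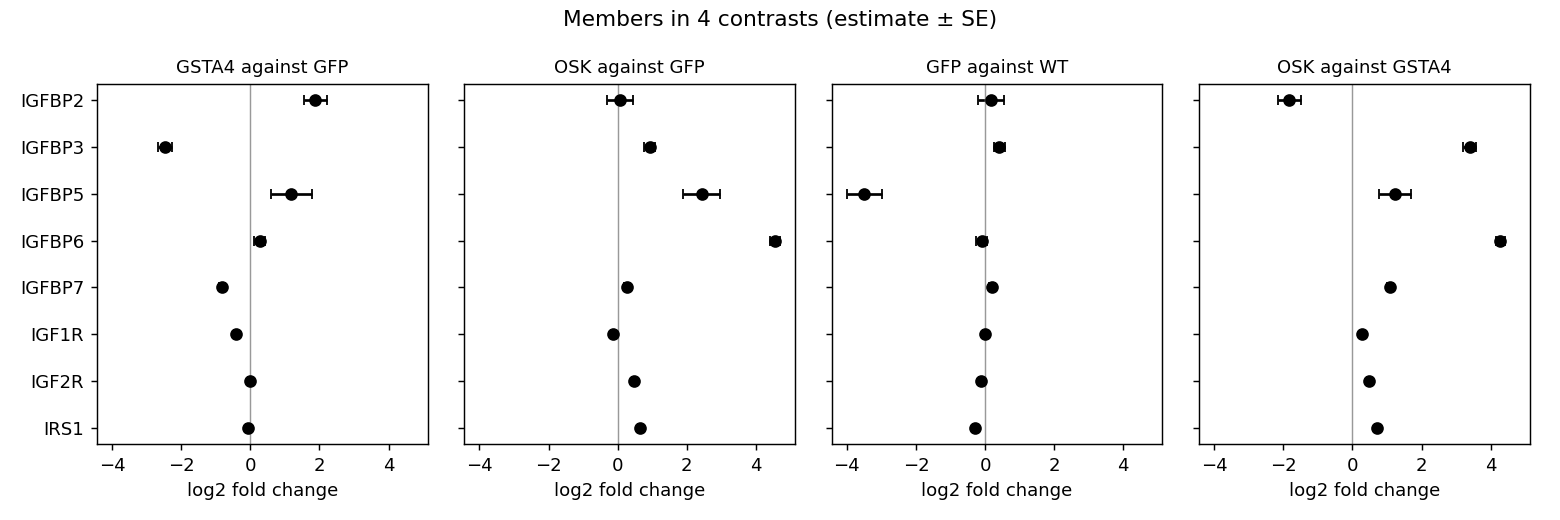
Log2 fold change of the 8 fitted genes in 4 comparisons, with points for the estimate and bars for 1 SE. IGFBP6 in OSK (4.56 against GFP and 4.28 against GSTA4) lies farthest to the right, followed by IGFBP3 in OSK against GSTA4 (3.40). IGFBP5 in GFP against WT (-3.50) lies farthest to the left.

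Other genes of the pathway were taken from 8 lists holding 82 genes. Of these, 71 were tested by edgeR's quasi-likelihood test with Benjamini-Hochberg adjustment over all 15179 genes. The lists were chosen with earlier results of these data known, so nothing is read from their called shares. Many genes named below were picked for large called fold changes in these same comparisons. Their adjusted p-values are therefore given as a description and are no independent test. In GSTA4 against GFP 16 were higher and 13 lower, 40.8% of those tested, where 29.2% of all genes were called. In OSK against GFP 21 were higher and 20 lower (57.7%, against 45.9% of all genes). In GFP against WT the counts were 6 and 13 (26.8%, against 22.2%), and in OSK against GSTA4 23 and 20 (60.6%, against 47.8%). The GSTA4 count of 29 fell to 18 without GFP replicate 1 and to 19 without GSTA4 replicate 2. Median log2 fold changes of the 71 genes were 0.04, 0.06, -0.04 and 0.03. By list, the GSTA4 against GFP medians were -0.09 for receptors and adaptors, 0.21 for proteases and inhibitors, -0.27 for surface partners, 0.04 for the PI3K, AKT and mTOR cascade and 0.06 for the FOXO list. The OSK against GFP medians were -0.15, 0.32, 0.20, 0.07 and -0.11 in the same order of lists. In OSK against GSTA4, 3 of 7 proteases and inhibitors rose and 3 fell, 8 of 26 cascade genes rose and 7 fell, and 3 of 14 FOXO genes rose and 5 fell. In GFP against WT, 1 rose and 2 fell among the proteases, and 1 rose and 2 fell among the surface partners. There 3 rose and 4 fell in the cascade, and 1 rose and 3 fell in the FOXO list. Of all genes, 24.1% were higher and 23.8% lower in OSK against GSTA4, and 11.0% and 11.2% in GFP against WT.

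**Figure D4:**
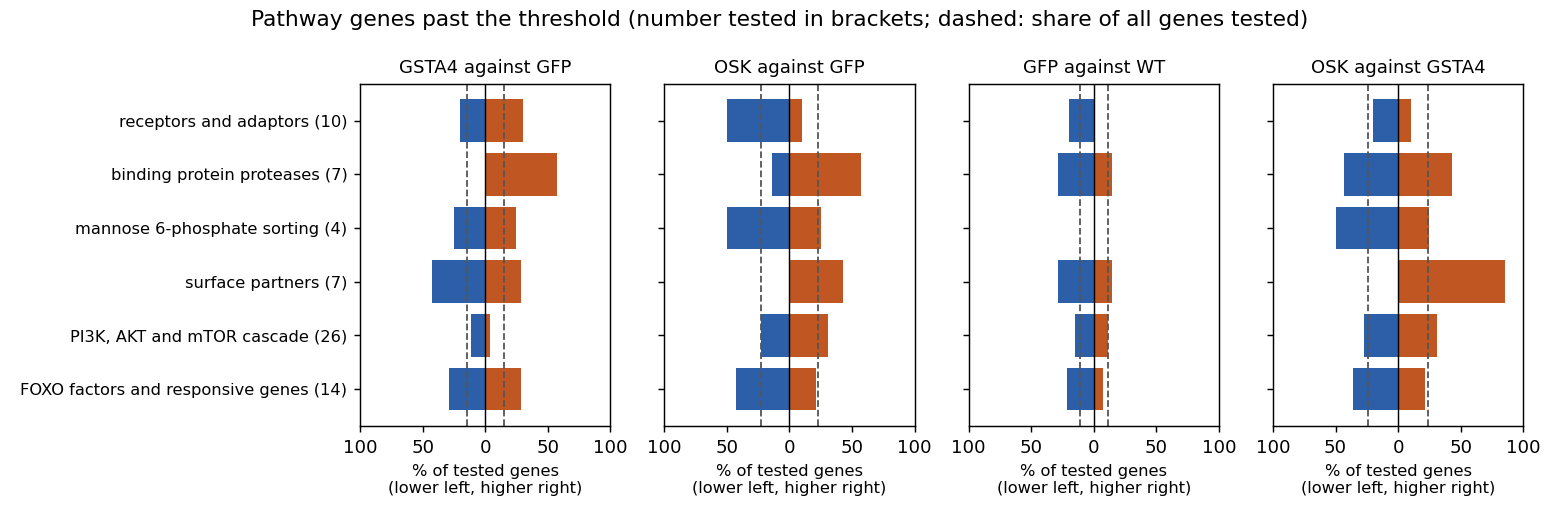
Percent of the tested genes of 6 pathway lists called higher (right) or lower (left) in the 4 comparisons, with the number tested in brackets and dashed lines at the share of all genes called in that direction. The PI3K, AKT and mTOR list holds the most tested genes (26), of which 8 rose and 6 fell in OSK against GFP. The dashed lines of that comparison stand at 23.1% higher and 22.8% lower.

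Insulin-type receptors and adaptors had 10 tested members. In OSK against GFP 1 rose and 5 fell, where 23.1% of all genes were higher and 22.8% lower. DESeq2 gave 2 higher and 4 lower there, and an unadjusted p under 0.05 in edgeR's test gave 3 higher and 5 lower. In GSTA4 against GFP 3 rose and 2 fell, where 14.7% of all genes were higher and 14.6% lower. INSR, the insulin receptor, averaged 187 ± 14.6 CPM in WT, 149 ± 6.38 in GFP, 126 ± 12.1 in OSK and 123 ± 5.07 in GSTA4 (SD, n = 3 libraries per group). It was lower in GFP than in WT (-0.33, SE 0.0712, edgeR adjusted p = 0.00238), in GSTA4 than in GFP (-0.28, SE 0.0721, edgeR adjusted p = 0.00654) and in OSK than in GFP (-0.24, SE 0.072, edgeR adjusted p = 0.00902, lost without OSK replicate 3). IRS2, the second main adaptor, fell in GFP against WT (-0.32, SE 0.0613, edgeR adjusted p = 0.000909) and in OSK against GFP (-0.20, SE 0.0616, edgeR adjusted p = 0.0127, lost without GFP replicate 3). In OSK, IRS1 was thus above and IRS2 below the GFP level, at 255 ± 4.88 and 226 ± 2.39 CPM. IRS2 in GSTA4 averaged 233 ± 15.3 CPM, and its libraries overlapped those of both GFP and OSK. IRS2 in GSTA4 against GFP was -0.15, not called in the main fit but called in 3 of the 12 fits that left out 1 library.

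Proteases of binding proteins and their inhibitors had 7 tested members. In GSTA4 against GFP 4 rose and 0 fell, with the same counts at an unadjusted p under 0.05 and in DESeq2. Of all genes, 14.7% were higher and 14.6% lower in that comparison. In OSK against GFP 4 rose and 1 fell (3 and 1 in DESeq2), where 23.1% of all genes were higher and 22.8% lower. ADAM9, a membrane protease, averaged 255 ± 8.53 CPM in WT, 358 ± 20.4 in GFP, 447 ± 27.2 in OSK and 586 ± 14.3 in GSTA4, with GSTA4 against GFP at 0.71 (SE 0.0612, edgeR adjusted p = 1.66e-08). ADAMTS1, which cleaves matrix proteoglycans, rose in OSK against GFP (1.26, SE 0.158, edgeR adjusted p = 1.41e-06) and in GSTA4 against GFP (0.68, SE 0.162, edgeR adjusted p = 0.00329), and was lower in GFP than in WT (-0.78, SE 0.161, edgeR adjusted p = 0.00166). With WT as the control in place of GFP, the GSTA4 value turned to -0.10. STC2, which inhibits PAPPA, fell in OSK against GFP (-0.79, SE 0.0919, edgeR adjusted p = 5.29e-07) and was lower in GFP than in WT (-0.53, SE 0.0878, edgeR adjusted p = 0.000254). Its rise in GSTA4 (0.29, SE 0.0884, edgeR adjusted p = 0.0172) was lost without GFP replicate 1 or GSTA4 replicate 1 or 2, and turned to -0.23 with WT as the control. PAPPA gave 1 to 14 counts and STC1 0 to 4, and neither was tested. PAPPA2, a related protease, gave 17, 13 and 33 counts in OSK against 8, 3 and 2 in GFP (2.17, SE 0.703, edgeR adjusted p = 0.0155), a call lost in DESeq2 and without GFP replicate 2 or 3 or OSK replicate 3, and 2.99 without GFP replicate 1.

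Surface partners of the binding proteins had 7 tested members, of which 6 rose in OSK against GSTA4 and 3 in OSK against GFP, while 2 rose and 3 fell in GSTA4 against GFP. Over all genes 24.1% were higher in OSK against GSTA4 and 23.1% in OSK against GFP, and 14.7% were higher and 14.6% lower in GSTA4 against GFP. CAV1, the caveolar coat protein, read 6.59, 3.30 and 6.61 CPM in WT, 4.49, 4.87 and 4.62 in GFP, 11.2, 9.91 and 11.9 in GSTA4, and 28.6, 34.6 and 38.1 in OSK. GSTA4 and OSK libraries stood apart from each other and from the rest, at 1.24 (SE 0.194, edgeR adjusted p = 5.46e-05) and 2.85 (SE 0.181, edgeR adjusted p = 5.74e-11) over GFP. ITGA5, the fibronectin receptor subunit, averaged 50.4 ± 6.97 CPM in WT, 39.4 ± 4.80 in GFP, 256 ± 13.4 in OSK and 40.7 ± 3.48 in GSTA4. Its rise in OSK over GFP was 2.70 (SE 0.0967, edgeR adjusted p = 6.39e-15). LRP1, an endocytic receptor that binds IGFBP3, was chosen after its values were seen and is described without a test: it averaged 3182 ± 370.3 CPM in WT, 2802 ± 206 in GFP, 3392 ± 159 in OSK and 1737 ± 63.3 in GSTA4. ITGB3, the vitronectin receptor beta subunit, was lower in GFP than in WT (-0.71, SE 0.214, edgeR adjusted p = 0.0221), a call lost without GFP replicate 2, WT replicate 2 or WT replicate 3.

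Of the IGF2 mRNA binding proteins, which bind and stabilise IGF2 and other transcripts, IGF2BP1 gave at most 7 counts and was not tested. IGF2BP3 gave 9, 6 and 13 counts in WT, 14, 9 and 8 in GFP, 13, 16 and 22 in GSTA4 and 34, 75 and 67 in OSK. OSK counts exceeded all others, with OSK against GFP at 2.40 (SE 0.388, edgeR adjusted p = 3.53e-05). IGF2BP2 rose in GSTA4 against GFP (0.51, SE 0.0753, edgeR adjusted p = 2.74e-05). In mannose 6-phosphate sorting, where IGF2R also acts, 4 genes were tested, and 1 rose and 2 fell in OSK against GFP. Of all genes, 23.1% were higher and 22.8% lower in that comparison.

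Among the 26 tested genes of the PI3K, AKT and mTOR cascade, 1 rose and 3 fell in GSTA4 against GFP. In OSK against GFP 8 rose and 6 fell. The called shares were 15.4% and 53.8% of the 26, against 29.2% and 45.9% of all genes. PIK3CD, a catalytic PI3K subunit, averaged 35.8 ± 4.99 CPM in WT, 27.3 ± 2.06 in GFP, 10.1 ± 1.40 in OSK and 28.9 ± 2.67 in GSTA4. It fell in OSK against GFP (-1.43, edgeR adjusted p = 7.57e-09). PHLPP2, a phosphatase that dephosphorylates AKT, rose in OSK against GFP (0.53, SE 0.0686, edgeR adjusted p = 1.99e-06) and was higher in GFP than in WT (0.41, SE 0.0707, edgeR adjusted p = 0.000311).

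FOXO factors and FOXO-responsive genes had 14 tested members, of which 4 rose and 4 fell in GSTA4 against GFP. In OSK against GFP 3 rose and 6 fell. The called shares were 57.1% and 64.3% of the 14, against 29.2% and 45.9% of all genes. SESN3, a stress-inducible regulator of mTORC1, read 28.8, 26.0 and 24.4 CPM in WT, 28.3, 27.0 and 24.5 in GFP, 61.4, 61.0 and 63.6 in GSTA4, and 9.68, 10.1 and 9.29 in OSK. The GSTA4 libraries lay above and the OSK libraries below both controls, which overlapped. The differences from GFP were 1.22 (SE 0.0838, edgeR adjusted p = 5.04e-10) and -1.46 (SE 0.0973, edgeR adjusted p = 1.29e-10), and OSK against GSTA4 came to -2.68 (SE 0.0934, edgeR adjusted p = 2.78e-15). FOXO6 fell in GSTA4 (-1.23, SE 0.118, edgeR adjusted p = 7.82e-08) and in OSK (-1.71, SE 0.122, edgeR adjusted p = 3.72e-10). FOXO3 fell in OSK against GFP (-0.39, SE 0.0664, edgeR adjusted p = 6.5e-05), and its rise in GSTA4 (0.20, SE 0.0654, edgeR adjusted p = 0.0294) was lost without GFP replicate 1 or 2 or any 1 GSTA4 library. FOXO1 passed the threshold in no comparison, with group means of 19.7 to 23.0 CPM, and FOXO4 rose in GSTA4 against GFP (0.41, SE 0.116, edgeR adjusted p = 0.0106), which was lost without GFP replicate 2 or GSTA4 replicate 1 and turned to -0.15 with WT as the control. TXNIP, a thioredoxin inhibitor, was lower in GSTA4 than in GFP (-0.97, SE 0.151, edgeR adjusted p = 4.79e-05, lost at -0.23 with WT as the control) and higher in GFP than in WT (0.75, SE 0.149, edgeR adjusted p = 0.00128). FBXO32, a ubiquitin ligase subunit, was lower in GSTA4 than in GFP (-0.74, SE 0.0923, edgeR adjusted p = 3.06e-06) and higher in OSK than in GSTA4 (1.02, SE 0.0921, edgeR adjusted p = 9.4e-09).

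The genes most like each binding protein across the 12 libraries were found among 13696 genes by the smallest root mean square difference of centred log2 CPM. TM4SF1, a membrane protein, was nearest to IGFBP6 (0.245) and averaged 61.6 ± 0.363 CPM in WT, 55.3 ± 2.27 in GFP, 1085 ± 49.0 in OSK and 61.7 ± 2.00 in GSTA4. LINC02582 came next (0.371), with 0 counts outside OSK. FNDC1 (0.256) and KCNK1 (0.262) were nearest to IGFBP3. FBXO32, from the FOXO list, was nearest to IGFBP7 at 0.0724, followed by GSEC at 0.0938. MELTF (0.316) and ABLIM3 (0.327) were nearest to IGFBP2. The histone genes H2BC5 (0.532) and H2AC6 (0.685) were nearest to IGFBP5, at a wider distance than for the others. These values are over 12 libraries that share their groups, and they are given as a description.

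**Figure D5:**
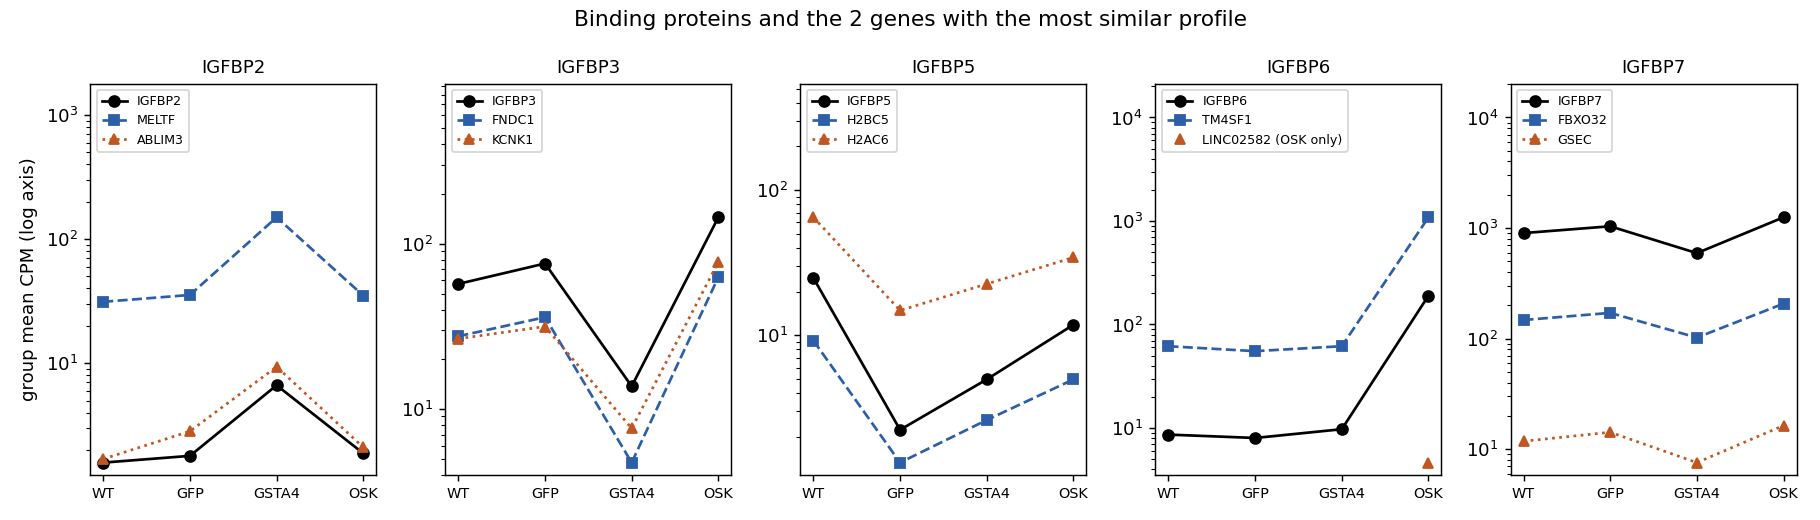
Group mean CPM on a log axis in WT, GFP, GSTA4 and OSK for 5 binding proteins (black) and the 2 genes nearest to each (blue and orange). IGFBP7 and FBXO32 run in parallel (root mean square difference 0.0724), IGFBP5 and H2BC5 less closely (0.532), and LINC02582 has a point in OSK alone.

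Levels of other genes moved with these groups, and their part in the results was not tested. Their lists were likewise chosen with earlier results of these data known, so their counts of calls are a description. A 12-gene proliferation list summed to 74.7 to 89.5 CPM in WT, 285 to 314 in GFP, 593 to 723 in OSK and 208 to 210.0 in GSTA4. All 12 rose in OSK against GFP and in GFP against WT, and 9 of 12 fell in GSTA4 against GFP. Of 11 tested RPE markers, 11 fell in OSK against GFP (10 in DESeq2), and 8 fell and 1 (LRAT) rose in GSTA4 against GFP. In GFP against WT 8 of them rose and 2 (KRT8 and KRT18) fell. OSK libraries lay above those of WT for TYR and SERPINF1, and below them for RLBP1, PMEL, MITF, OTX2, KRT8 and KRT18. They overlapped WT for BEST1, LRAT and TYRP1. Beside these proliferation and RPE counts, 23.1% of all genes were higher and 22.8% lower in OSK against GFP. The shares were 14.7% and 14.6% in GSTA4 against GFP, and 11.0% and 11.2% in GFP against WT. Mesenchymal markers summed to 1185 to 1419 CPM in WT, 1349 to 1499 in GFP, 826 to 841 in OSK and 1218 to 1386 in GSTA4, with LUM at 0 in every library. VIM and PDGFRB carried most of that sum. COL1A1 and TAGLN, at 82.6 and 126 CPM in GFP, were at 4.53 and 10.8 CPM in GSTA4 and 20.9 and 27.9 CPM in OSK. All 5 tested mesenchymal markers were called in GSTA4 against GFP, 2 higher and 3 lower, where 29.2% of all genes were called. All 5 were lower in OSK against GFP (4 in DESeq2), where 22.8% of all genes were lower. Endothelial markers, mostly KDR, summed to 71.0 to 94.5 CPM in WT, 58.7 to 73.1 in GFP, 23.6 to 26.6 in OSK and 36.3 to 38.7 in GSTA4. Leukocyte markers, mostly CSF1R, summed to 3.30 to 11.3 CPM in WT, 15.1 to 18.9 in GFP, 9.88 to 13.7 in OSK and 0.450 to 0.826 in GSTA4. Pluripotency markers other than the ORFs stayed at 1.24 to 4.49 CPM in all libraries.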

How the data were processed

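The authors deposited 1 table of raw counts per gene, whole numbers that were not normalised. Per the submitters' processing notes, STAR 2.7.1a and featureCounts 1.6.2 were used, and the listed builds include GRCh38. The annotation release and the strand setting are not given in the sources used here, so reads of overlapping genes on opposite strands cannot be told apart. Libraries are TRIzol RNA selected for poly(A), per the labels' protocols. The 20014 lines without a symbol were left out of library sizes and tests.

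Counts were fitted with edgeR 4.0.16 (TMM scaling, filterByExpr, quasi-likelihood test, 12 libraries in 1 fit with a mean per group, R 4.3.3), leaving 15179 genes. Benjamini-Hochberg adjustment ran over all of them with a threshold of 0.05, and tests were two-sided. CPM values are TMM-scaled, fitted folds use a prior count of 0.125, and log2 CPM profiles one of 2. The SE of a log2 fold change was derived from the F statistic. Lengths and positions come from GENCODE v29. The scripts were tested on simulated data.

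The 10 genes and all lists were chosen with earlier results of these data known. Named pathway genes are, per comparison, the 3 called genes with the largest absolute log2 fold change in each direction at a mean of at least 1 CPM, plus INSR, IRS2, IGF1, IGFBP1, PAPPA, PAPPA2, STC1, STC2, IGF2BP1 to IGF2BP3, FOXO1 and FOXO3. Alternatives were RLE or library-size scaling, other filters, DESeq2 1.42.0, a replicate block, WT in place of GFP as control, and leaving out each library in turn.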

Additional observations from a re-analysis of the deposited data

How the results depend on the processing

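Of 592 alternative values for the 32 fold changes of the 8 fitted genes, 564 kept their call or stayed uncalled (an uncalled value may change sign), 7 lost the call, 19 gained one and 2 turned. For the named pathway genes the numbers were 1412, 41, 15 and 8 of 1476. Both sets of genes were chosen with earlier results known, so these numbers describe dependence on the processing and are no evidence for the calls. All 10 values that turned came with WT as the control: IGFBP5 -2.31 in GSTA4 and -1.07 in OSK, TXNIP 0.27 in OSK, ITGA5 -0.31, PIK3CD -0.31, PHLPP2 0.19, ADAMTS1 -0.10 and STC2 -0.23 in GSTA4, and FOXO4 -0.15 in GSTA4 and -0.41 in OSK. The IGFBP5 values include WT replicate 1, without which its WT mean was 11.97 CPM, against 11.8 in OSK. The count of called members of the 10 in GFP against WT went from 2 to 4 with no filter or the replicate block. The pathway count in GSTA4 against GFP ran from 18 to 34 with each library left out. The cause was not tested. Same-number libraries correlated at -0.0193 to 0.153 over 18 pairs, and other-number libraries at -0.0982 to 0.077. The 5 of 12 libraries that correlated best with their own number were replicate 1 of each group and WT replicate 3. The main fit did not pair the samples by number, and the replicate block stands as an alternative. The pairs above 0.1 were those of WT replicate 1 with replicate 1 of the other groups. The calls gained with the replicate block in GFP against WT were IGFBP3 (0.44) and IGFBP7 (0.21). IGF2 and IGFBP4 are limited by depth, at under 3 counts in each library.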
